A study of Homo sapiens with 4 samples.

Results

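Heat shock proteins and their J-domain cochaperones are the molecular chaperones that hold, fold and disaggregate other proteins. They were followed here at the RNA level in MOLM13, a human cell line of acute myeloid leukaemia, after knockdown of PRMT9, a protein arginine methyltransferase. The genes were taken by name from the deposited count table: every row with an HSPA, HSPB, HSPH, HSPD, HSPE, DNAJA, DNAJB or DNAJC symbol made of the family name, a number and at most 1 further letter, with HSP90AA1, HSP90AB1, HSF1 and HSF2 added and with the endoplasmic reticulum (ER) members HSPA5, DNAJB9, DNAJB11, DNAJC3 and DNAJC10 left out. This gave 70 of the 57992 rows, and the name rule itself uses no measured value, although it was set with earlier results of these data known. They comprised 29 genes of heat shock proteins and heat shock factors and 41 J-domain genes. Per the labels, all 4 libraries came from the subline called VEN-R, which the study's title describes as resistant to venetoclax, an inhibitor of BCL2, and all 4 were collected after doxycycline (Dox) induction. The 2 shCtrl libraries carried a control short hairpin RNA with the genotype label WT, and the 2 shPRMT9 libraries carried a hairpin against PRMT9 with the genotype label PRMT9 knockdown. Both groups therefore share the drug resistance, the doxycycline and an induced hairpin. The labels give neither the hairpin sequences nor whether replicates 1 and 2 are separate cultures or clones, so that p-values measure only the spread between these libraries, which may be technical.

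Chaperones of the HSP70 family (HSPA genes) bind exposed hydrophobic stretches of client proteins in a cycle driven by ATP. J-domain proteins (DNAJ genes, the HSP40 family) bring clients to an HSP70 and stimulate its ATP hydrolysis, while nucleotide exchange factors such as the HSP110 protein HSPH1 release the bound ADP and with it the client. HSP90 acts later on partly folded clients, many of them kinases and transcription factors, HSP60 and HSP10 form a folding chamber inside mitochondria, and small heat shock proteins hold unfolded proteins without using ATP. Heat shock factor 1 (HSF1) is the main transcription factor that raises many of these genes upon proteotoxic stress, by binding heat shock elements in their promoters, and leukaemia cells commonly express the constitutive members at high levels.

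Total counts ranged from 28592902 to 33845172 reads per library, and replicate libraries had a coefficient of variation of 0.0259. PRMT9, the targeted gene, was counted at 398 and 406 reads in shCtrl and 81 and 78 reads in shPRMT9, a log2 fold change of -2.48 (edgeR's quasi-likelihood test, Benjamini-Hochberg adjusted p = 5.2e-13). Of 10 myeloid marker genes, 10 were detected, although ANPEP stood at only 0.165 and 0.176 CPM (counts scaled to the TMM-adjusted library total) in the controls. Their summed level was 1793 to 1807 CPM in shCtrl and 2588 to 2592 CPM in shPRMT9, with 9 of the 10 higher and MPO lower (log2 fold change -0.47). The 9 rises ran from 0.15 for CEBPA to 3.39 for ANPEP on the log2 scale, with CSF1R at 1.86 and ITGAM at 1.83. The part of this shift in the results below was not tested. Of 14 markers of lymphoid, erythroid, epithelial, stromal, liver and islet cells, 6 were at 0 in every library, HBB, HBA1, EPCAM, KRT19 and INS among them, and KRT18 made up nearly all of a summed level of 22.6 to 23.2 CPM in shCtrl and 26.4 to 27.6 CPM in shPRMT9. KRT18 rose (0.18, adjusted p = 0.014), as did the stromal marker PDGFRB, from 6 and 3 to 24 and 41 reads (2.67, adjusted p = 6.1e-05), and COL1A1, the third tested, was not called. The part of these markers in the results was not tested either.

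The comparison asks which chaperone genes change when PRMT9 is depleted in cells resistant to venetoclax. The summed RNA of this system was lower after the knockdown: the 70 genes together took 1.46% and 1.46% of all counts in the shCtrl libraries and 0.975% and 0.977% in the shPRMT9 libraries. This sum is weighted to a few genes. HSPA8, HSP90AB1 and HSP90AA1 alone had 108383, 100544 and 70520 reads in shCtrl replicate 1 and 54786, 79925 and 41269 reads in shPRMT9 replicate 1. Of the 70 genes, 54 had enough reads to be tested, of which 30 fell, 13 rose and 11 did not pass the test (edgeR's quasi-likelihood test, adjusted p below 0.05 over 15193 genes). The background has to be read beside these counts, since 67.9% of all tested genes were called in either direction, 34.5% lower and 33.4% higher. The tested chaperone genes were called lower in 55.6% and higher in 24.1%, with a median log2 fold change of -0.30 against 0.00085 over all tested genes. Falls of 1.5-fold or more were called in 12 of the 54 chaperone genes (background 1915 of 15193 genes, or 12.6%). Rises of that size were called in 6 of the 54 (background 2638 of 15193, or 17.4%). The 2 groups of libraries did not overlap in 50 of the 54, which was also the case for 83.3% of all genes tested. Values are shares of each library, so a change is relative to the rest of the transcriptome, and in bulk RNA fewer cells of a kind cannot be told apart from less RNA per cell.

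**Figure D1:**
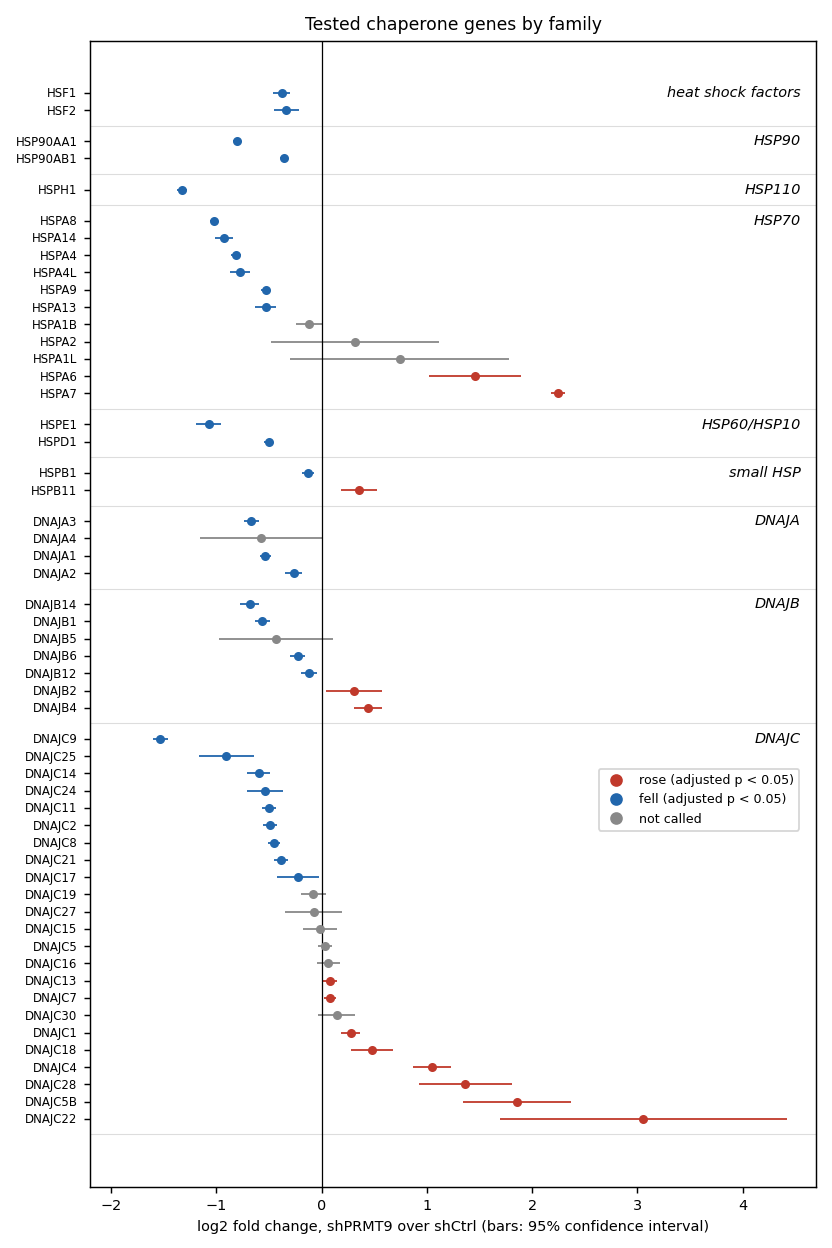
Log2 fold change of each of the 54 tested chaperone genes (x axis, shPRMT9 over shCtrl) by family, with 95% confidence intervals as bars and the call by colour. The HSP90, HSP110, HSP60/HSP10 and heat shock factor genes all lie left of 0, while DNAJC genes spread from -1.53 for DNAJC9 to 3.05 for DNAJC22.

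Falls outnumbered rises in both kinds of gene. Among the 20 tested heat shock protein and factor genes 14 fell (70%) and 3 rose (15%), and the median log2 change was -0.44. Among the 34 tested J-domain genes 16 fell (47.1%) and 10 rose (29.4%), with a median of -0.17. Over all tested genes the shares were 34.5% and 33.4%. The difference between these classes was not tested. Summed per length, as the authors' deposited RPKM (reads scaled by exon length and library total), the HSP110 level dropped by 60.2%, the HSP70 level by 38.6%, HSP60 with HSP10 by 31.2%, DNAJA by 29.6%, HSP90 by 28%, the heat shock factors by 22.3%, DNAJB by 19%, DNAJC by 17.5% and the small heat shock proteins by 7.0%. Families were formed by gene name, so that HSP110 is HSPH1 alone, and the HSP110 relatives HSPA4 and HSPA4L are part of the HSP70 sum. In each of these 9 families the family sum was lower in both shPRMT9 libraries than in either shCtrl library. Among single genes the groups stood apart, in either direction, in 83.3% of all genes tested.

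The 16 genes that were not tested had few or no reads. DNAJB3, DNAJB7, DNAJB8 and DNAJC5G were at 0 in every library. HSPA1A, HSPA12A, HSPA12B, HSPB2, HSPB3, HSPB6, HSPB7, HSPB8, HSPB9, DNAJB13, DNAJC6 and DNAJC12 had at most 8 reads in any library. Most of these are genes known from muscle, testis or brain. HSPA1A differs from them, since its coding sequence is nearly identical to that of HSPA1B, and it is taken up with that gene below.

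Both heat shock factors were lower after the knockdown. HSF1 was measured at 66.4 and 66.2 CPM in the shCtrl libraries and 50.5 and 51.3 CPM in the shPRMT9 libraries, which is a log2 change of -0.38 (SE 0.039, adjusted p = 5.6e-08). HSF2, a related factor that can pair with HSF1, was at 31.6 and 31.8 CPM in shCtrl against 23.9 and 26.2 CPM in shPRMT9 (-0.34, SE 0.057, adjusted p = 3.2e-05). For both factors the groups stood apart, as in 83.3% of all genes tested, and the shCtrl libraries differed by less than 1 CPM. Of the other factors and regulators looked at, HSF4 rose (0.49, adjusted p = 1.2e-04) from 9.42 and 8.5 to 13.2 and 12 CPM. HSBP1, which binds HSF1 and restrains it, fell (-0.43, adjusted p = 3.4e-08). These RNA levels do not measure the activity of HSF1, which is set largely by its binding to chaperones, its trimerisation and its modification.

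Binding sites for the heat shock factors were looked for in the promoters of the chaperone genes to show which of them carry the same letters. RefSeq start sites (GRCh38.p14) gave windows from 250 bases before to 50 after the start, and 60 of the 70 genes matched, with 81 windows in all. DNAJB3, DNAJC1, DNAJC22, DNAJC24, DNAJC5B, HSF1, HSPA12B, HSPA14, HSPA7 and HSPB2 had none. A heat shock element was read as 3 units, alternating GAA and TTC, with 2 bases between neighbours (GAANNTTCNNGAA or TTCNNGAANNTTC, which covers both strands). The 9 stretches below are the elements found upstream of a start site, with HSPA1B added as a stress-inducible gene holding a shorter form, shown 5′ to 3′ on the gene's strand with the element in capitals, and with positions counted from the start site.
HSPA8, -63 to -34, chr11:123062170-123062199, minus strand: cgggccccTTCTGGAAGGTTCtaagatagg
HSPA8, -238 to -209, chr11:123062345-123062374, minus strand: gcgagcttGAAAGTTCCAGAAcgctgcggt
HSP90AA1, -96 to -67, chr14:102087111-102087140, minus strand: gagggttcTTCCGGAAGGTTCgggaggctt
HSP90AB1, -173 to -144, chr6:44247770-44247799, plus strand: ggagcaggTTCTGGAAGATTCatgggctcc
HSP90AB1, -120 to -91, chr6:44247823-44247852, plus strand: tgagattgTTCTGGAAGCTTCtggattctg
HSPD1, -250 to -221, chr2:197500061-197500090, minus strand: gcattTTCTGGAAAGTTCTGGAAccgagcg
DNAJB6, -139 to -110, chr7:157336865-157336894, plus strand: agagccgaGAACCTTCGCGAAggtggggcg
HSPA6, -82 to -53, chr1:161524458-161524487, plus strand: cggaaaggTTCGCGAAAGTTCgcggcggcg
HSPA1B, -113 to -84, chr6:31827625-31827654, plus strand: aacccctgGAATATTCccgacctggcagcc

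The 3-unit element was present in 7 of the 60 genes, or 11.7%, against 166 of 27305 symbols, or 0.608%, over all promoters of the table. The genes were HSPA8, HSP90AA1, HSP90AB1, HSPD1, DNAJA1, DNAJB6 and HSPA6. The DNAJA1 element began 4 bases after the start. HSPA8 and HSP90AB1 each held a pair of separate elements, and the capitals of HSPD1 are overlapping elements that begin at -245 and -240. The HSPA1B stretch shows the shorter form with 2 units (GAANNTTC or TTCNNGAA), which was found in 22 of the 60 genes (36.7%) and in 16.2% of all symbols and which every 3-unit element contains. By direction of change, 6 of the 27 genes with a window that fell had the 3-unit element, as did 1 of the 9 that rose (HSPA6), 0 of the 11 not called and 0 of the 13 not tested. The CCAAT box, searched as CCAAT on both strands, was in 36.7% of the genes and in 39.7% of all symbols. A match describes the letters in the window and not a bound site, and a window without one says only that these letters are not in it. The stretches of HSPA6 and HSPA1B lie before the gene as the count table places it, while the other 7 lie inside the gene, upstream of an internal start, and those of HSPA8, HSP90AA1 and HSPD1 are covered by an exon of at least 1 GENCODE release 29 transcript.

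Per length, HSPA8 had the highest RNA level of the HSP70 family, and it fell the most among its protein-coding members. HSPA8 (ENSG00000109971, chromosome 11, 123057489 to 123063230, minus strand, GRCh38) encodes HSC70, the constitutive cytosolic HSP70 that serves general folding, clathrin uncoating and chaperone-mediated autophagy. It was measured at 3584 and 3628 CPM in the shCtrl libraries and 1772 and 1768 CPM in the shPRMT9 libraries. Replicates nearly coincided, and the level after knockdown was 2.04-fold lower (log2 fold change -1.03, SE 0.018, adjusted p = 2.8e-19). On the RPKM scale HSPA8 made up 72.3% and 72.1% of the HSP70 family sum in the controls and 57.6% and 57.6% after the knockdown. 8.23% of the 50-base stretches of its transcripts also occur in other genes, most often in the pseudogene HSPA8P1.

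**Figure D2:**
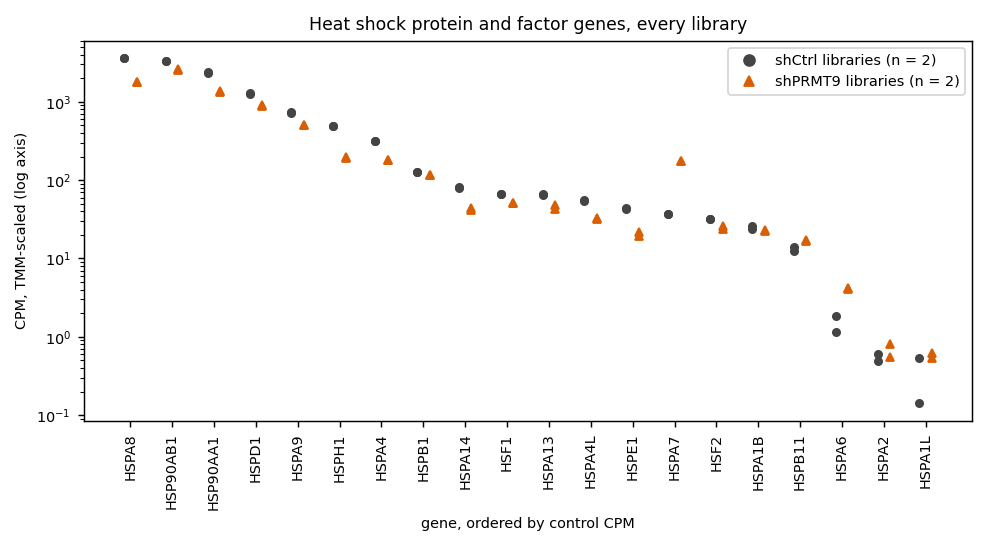
TMM-scaled CPM (log axis) of the 20 tested heat shock protein and factor genes in each of the 4 libraries, ordered by control level. Every gene from HSPA8 to HSPE1 has lower triangles (shPRMT9, n = 2) than circles (shCtrl, n = 2) and HSPA7 has higher ones.

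HSPA1B, of the pair that encodes the classic stress-inducible HSP70, was not called, and HSPA1A was not tested. HSPA1B, 1 of these adjacent genes, was at 23.7 and 26.1 CPM in the shCtrl libraries and 22.6 and 23.3 CPM in the shPRMT9 libraries. Its log2 fold change was -0.12 with a 95% interval of -0.25 to 0.014 (adjusted p = 0.11), which does not meet that of HSPA8 (-1.06 to -0.99). HSPA1A, its copy, had 2, 5, 5 and 0 reads, and 71.4% of the 50-base stretches of HSPA1B are also in HSPA1A, so the split of reads between both genes is uncertain. With both rows added together, the log2 fold change was -0.12 (adjusted p = 0.101). Without the shCtrl replicate 1 library the HSPA1B value was -0.19 and passed the threshold. The testis-associated relatives HSPA1L (16 and 4 reads in shCtrl and 19 and 18 reads in shPRMT9) and HSPA2 (18 and 14 reads in shCtrl and 25 and 19 reads in shPRMT9) were barely detected, and their intervals of -0.30 to 1.78 and -0.48 to 1.11 on the log2 scale leave rises and falls possible. HSPA1L also passed the threshold without shCtrl replicate 1, at 1.98.

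The exchange factors of the HSP110 type, which release clients from HSP70, were all lower. HSPH1 (ENSG00000120694, chromosome 13, 31134974 to 31162388, minus strand) was measured at 485 and 486 CPM with the control hairpin and 192 and 195 CPM with the PRMT9 hairpin. This 2.51-fold fall (log2 -1.33, SE 0.022, adjusted p = 1.8e-19) was the largest among the 20 tested heat shock protein and factor genes, and 0% of its 50-base stretches recur in other genes. HSPA4, a widely expressed HSP110 relative, went from 314 and 321 CPM to 180.0 and 181 CPM (-0.81, adjusted p = 3.5e-16). Its heat-inducible paralogue HSPA4L went from 56.5 and 54.8 CPM to 31.7 and 33.2 CPM (-0.78, adjusted p = 1.8e-11). The 3 falls differ in size beyond their errors only for HSPH1, whose interval of -1.37 to -1.28 does not meet those of HSPA4 (-0.86 to -0.76) and HSPA4L (-0.88 to -0.68).

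RNA of the ribosome-associated, mitochondrial and microsomal HSP70 genes fell as well. HSPA14 forms the ribosome-associated complex with DNAJC2, which receives nascent chains at the ribosome. HSPA14 RNA stood at 80.3 and 82.3 CPM in shCtrl against 43.8 and 41.8 CPM in shPRMT9 (-0.93, SE 0.040, adjusted p = 1.5e-13). HSPA9, the mitochondrial HSP70 that pulls imported proteins into the matrix, was at 728 and 745 CPM in the shCtrl libraries and 512 and 506 CPM in the shPRMT9 libraries (-0.53, adjusted p = 2.2e-14). HSPA13, a truncated HSP70 of microsomes, was at 65.9 and 65.1 CPM in shCtrl against 42.9 and 47.6 CPM in shPRMT9 (-0.53, adjusted p = 6.8e-09). Relative to its level, its gap between the shPRMT9 libraries was wider than that of HSPA9. In all 3 genes both shPRMT9 values lay below both shCtrl values, and the groups stood apart in 83.3% of all genes tested.

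HSPA6 and HSPA7, neighbours on chromosome 1, were the HSP70 genes that rose. HSPA6 (chromosome 1, 161524540 to 161526910, plus strand) encodes a strictly inducible HSP70 found in primates and not in rodents, and GENCODE release 29 lists HSPA7 (chromosome 1, 161606291 to 161608217, plus strand) as an unprocessed pseudogene. HSPA7 was measured at 37.1 and 37.4 CPM in the shCtrl libraries and 178 and 176 CPM in the shPRMT9 libraries, a 4.75-fold rise (log2 2.25, SE 0.032, adjusted p = 2.5e-20). HSPA6 had 35 and 53 reads in shCtrl and 129 and 140 reads in shPRMT9, or 1.16 and 1.87 against 4.17 and 4.12 CPM (log2 1.46, SE 0.207, adjusted p = 4.0e-06). Per length, HSPA7 RNA was thus far above HSPA6 RNA in every library, with 19.3 against 0.64 RPKM in shCtrl and 91.7 against 1.75 RPKM in shPRMT9 (means of 2 libraries). Of the 50-base stretches of HSPA6, 45.5% are also in HSPA7, so reads may be split between them or dropped, and the sum of both rows, added after the data were seen, rose by 2.22 on the log2 scale (adjusted p = 2.6e-20). The HSPA7 row made up 1.88% and 1.87% of the HSP70 family sum in RPKM in the shCtrl libraries and 14.5% and 14.5% in the shPRMT9 libraries. Without this row, the HSP70 sum dropped by 46.5% in place of 38.6%.

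The neighbouring Fc gamma receptor genes, which encode receptors for immunoglobulin G on myeloid cells, rose in the same libraries. HSPA6 begins 526 bases after the end of FCGR2A on the same strand, and HSPA7 begins 628 bases after the end of FCGR2C. FCGR2A stood at 65.9 and 66.1 CPM in shCtrl against 174 and 181 CPM in shPRMT9 (1.43, adjusted p = 7.0e-18). FCGR2C stood at 45.8 and 46.1 CPM in shCtrl against 187 and 189 CPM in shPRMT9 (2.03, adjusted p = 5.6e-20). In both receptor genes the 2 groups of libraries stood apart, as in 83.3% of all genes tested. FCGR2B, the next tested gene along the chromosome, rose by 1.88 on the log2 scale (adjusted p = 3.9e-09). The Fc receptor-like gene FCRLA rose by 1.21 (adjusted p = 2.6e-07). All 6 tested rows from 100 kb before HSPA6 to 100 kb after HSPA7, both included, thus rose, against a background of 33.4%. The 6 rows need not be independent, since HSPA6 and HSPA7 share sequence, and sequence shared among the receptor genes was not measured. The receptor genes were also named after their values were seen, so the background does not show how unusual this run of rises is. Whether reads of the receptor genes entered the counts of HSPA6 and HSPA7 was not tested.

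**Figure D3:**
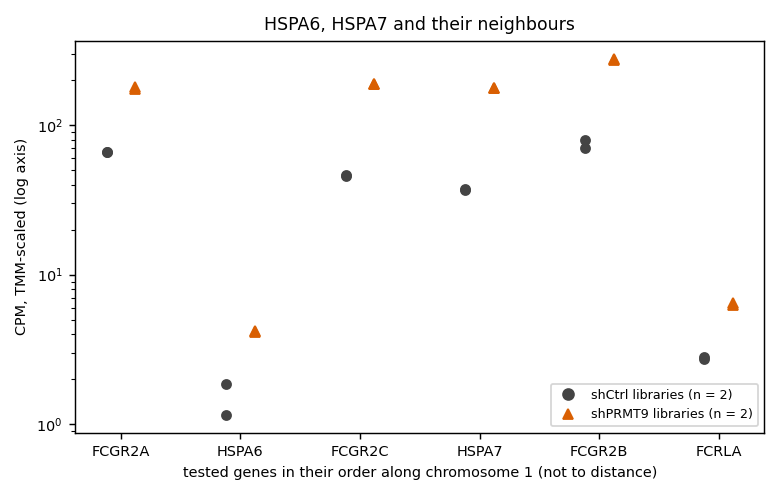
TMM-scaled CPM (log axis) of the 6 tested genes around HSPA6 and HSPA7 in each library, in their order along chromosome 1. For every gene both shPRMT9 libraries (triangles) lie above both shCtrl libraries (circles).

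Both cytosolic HSP90 genes fell. HSP90AB1, the constitutive HSP90 beta and the member with the highest RPKM of all 54 tested chaperone genes, was at 3325 and 3309 CPM in the shCtrl libraries and 2585 and 2597 CPM in the shPRMT9 libraries (-0.36, SE 0.017, adjusted p = 6.2e-13). HSP90AA1, the inducible HSP90 alpha, was at 2332 and 2379 CPM in shCtrl against 1335 and 1366 CPM in shPRMT9 (-0.80, SE 0.019, adjusted p = 2.7e-17). The intervals of the fold changes, -0.39 to -0.32 and -0.84 to -0.76 on the log2 scale, do not meet, and the difference between these genes was not itself tested. HSP90AA1 accordingly went from 28.5% and 29% of the HSP90 sum in RPKM to 22.7% and 23%. Stretches of 50 bases shared with other genes, most often the pseudogenes HSP90AB3P and HSP90AA2P, made up 16.6% of HSP90AB1 and 14% of HSP90AA1.

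The mitochondrial folding chamber fell in both of its parts. HSPD1, which encodes HSP60, was at 1264 and 1280.1 CPM in the shCtrl libraries and 899.9 and 893 CPM in the shPRMT9 libraries (-0.51, SE 0.019, adjusted p = 1.4e-14). HSPE1, which encodes its lid HSP10, was at 43.6 and 42.6 CPM in shCtrl against 19.2 and 21.6 CPM in shPRMT9 (-1.08, SE 0.058, adjusted p = 3.6e-12). These genes lie head to head on chromosome 2 and start from a shared promoter region, yet their intervals of -0.54 to -0.47 and -1.20 to -0.95 do not meet. The level of HSPE1 has to be read with care, since 22.7% of its 50-base stretches are found in other genes, 11% in HSPD1 itself on the opposite strand. The HSPD1 gene overlaps HSPE1 over its whole length of 3464 bases. The read-through row HSPE1-MOB4 overlaps 3045 bases of HSPE1 on the same strand and holds 0 counts. Whether these overlaps lowered the HSPE1 counts, or bear on its difference from HSPD1, was not tested. Among the small heat shock proteins, HSPB1 (HSP27) was at 128 and 128 CPM in shCtrl against 118 and 117 CPM in shPRMT9 (-0.13, adjusted p = 3.7e-04), a call that upper-quartile scaling did not keep. HSPB11, also known as IFT25, a part of the intraflagellar transport machinery, was at 14 and 12.5 CPM in shCtrl against 16.7 and 17.2 CPM in shPRMT9 and rose (0.35, adjusted p = 6.7e-04).

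Of the 4 DNAJA genes, which encode the cochaperones most like bacterial DnaJ, 3 fell (75%, against 34.5% of all genes). DNAJA1, the most abundant J-domain gene by RPKM, was at 254 and 253 CPM in the shCtrl libraries and 177 and 173 CPM in the shPRMT9 libraries (-0.54, SE 0.024, adjusted p = 2.5e-13). DNAJA3, the mitochondrial partner of HSPA9, was at 104 and 98.1 CPM in shCtrl against 63.1 and 64.2 CPM in shPRMT9 (-0.67, adjusted p = 3.4e-12). DNAJA2, a cytosolic partner of HSPA8, was at 106 and 97.3 CPM in shCtrl against 87 and 81.9 CPM in shPRMT9 (-0.27, adjusted p = 1.5e-05). DNAJA4 had only 63 and 42 reads in shCtrl and 29 and 49 reads in shPRMT9, with an interval of -1.15 to 0.0011 (adjusted p = 0.072). It passed the threshold without shCtrl replicate 2 (-0.78) or shPRMT9 replicate 2 (-0.92).

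The 7 tested DNAJB genes split, with 4 lower (57.1%), 2 higher (28.6%) and DNAJB5 not called. Over all genes 34.5% were lower and 33.4% higher. DNAJB1, the heat-inducible HSP40 that works with HSPA8 and HSPH1 in disaggregation, was at 102 and 107 CPM in the shCtrl libraries and 70.0 and 71.6 CPM in the shPRMT9 libraries (-0.56, SE 0.034, adjusted p = 1.8e-11). DNAJB14 and DNAJB12 are ER membrane cochaperones, and DNAJB14 fell from 57.5 and 58.5 to 35.5 and 36.6 CPM (-0.68, adjusted p = 5.6e-11). DNAJB12 moved little, from 74.5 and 74.4 to 68.6 and 68.5 CPM (-0.12, adjusted p = 0.0048), and was not called with upper-quartile scaling or DESeq2. DNAJB6, a suppressor of polyglutamine aggregation, was at 102 and 99.9 CPM in shCtrl against 83.5 and 89.2 CPM in shPRMT9 (-0.23, adjusted p = 9.6e-06). DNAJB4, close to DNAJB1 in sequence, rose from 18.9 and 18.4 to 24.3 and 26.2 CPM (0.44, adjusted p = 6.0e-06). DNAJB2, known for its neuronal forms that bind ubiquitin, was at 4.83 and 4.8 CPM in shCtrl against 5.53 and 6.36 CPM in shPRMT9 (0.31, adjusted p = 0.040). That rise rests on few libraries, since without shPRMT9 replicate 2 it was 0.202 and without shCtrl replicate 1 it was 0.305, neither passing the threshold. DNAJB5 had 44 and 45 reads in shCtrl and 33 and 40 reads in shPRMT9 (interval -0.98 to 0.11).

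The DNAJC genes, which share only the J domain and serve very different tasks, went both ways. Of 23 tested, 9 fell (39.1%) and 8 rose (34.8%), near the background of 34.5% and 33.4%, and the median log2 fold change of -0.016 became 0.073 with upper-quartile scaling, which moved the median of all genes alike, from 0.00085 to 0.089. DNAJC9 showed the largest fall of all 54 genes. DNAJC9 (chromosome 10, 73183362 to 73248862, minus strand) encodes a nuclear chaperone that holds histones H3 and H4 and recruits HSP70 to them. It was measured at 135 and 132 CPM in the shCtrl libraries and 45.2 and 46.9 CPM in the shPRMT9 libraries, a 2.89-fold fall (log2 -1.53, SE 0.034, adjusted p = 9.7e-18). Its shPRMT9 values lay close together and far below the controls. The gene overlaps FAM149B1 on the opposite strand, which rose by 0.56 and shares 19.4% of the 50-base stretches of DNAJC9.

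The other falls among the DNAJC genes were smaller. DNAJC25, an ER membrane member, went from 7.84 and 9.14 to 4.88 and 4.18 CPM (-0.91, adjusted p = 2.5e-06). DNAJC14, which helps export receptors from the ER, was at 35.1 and 36.4 CPM in shCtrl against 23 and 24.1 CPM in shPRMT9 (-0.60, adjusted p = 7.3e-09), but 53.1% of its 50-base stretches occur in other annotated genes. DNAJC24, needed to make the diphthamide residue of elongation factor EEF2, was at 16.6 and 17.1 CPM in shCtrl against 12.2 and 11.1 CPM in shPRMT9 (-0.54, adjusted p = 8.7e-06). The 4 further genes were more abundant and fell by similar amounts. DNAJC11, a mitochondrial outer membrane protein tied to cristae, was at 105 and 107 CPM in shCtrl against 75.8 and 73.6 CPM in shPRMT9 (-0.51). DNAJC2, the J-domain partner in the ribosome-associated complex, was at 98.2 and 99.6 CPM in shCtrl against 71.1 and 69.5 CPM in shPRMT9 (-0.49). DNAJC8, a factor associated with the spliceosome, was at 147 and 145 CPM in shCtrl against 105 and 107 CPM in shPRMT9 (-0.46). The largest adjusted p of these 3 was 7.3e-11. DNAJC21, which acts in maturation of the large ribosomal subunit, was at 139 and 146 CPM in shCtrl against 110.2 and 107 CPM in shPRMT9 (-0.39, adjusted p = 1.1e-09). DNAJC17, a second J-domain protein linked to splicing, was at 9.56 and 10.5 CPM in shCtrl against 8.67 and 8.48 CPM in shPRMT9 and passed narrowly (-0.22, adjusted p = 0.046). It no longer passed without shCtrl replicate 2 (-0.14) or without either shPRMT9 library (-0.24 and -0.21), nor with most other settings.

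The largest rises among the DNAJC genes were in genes with little RNA. DNAJC22 had 0 and 5 reads in shCtrl and 22 and 26 reads in shPRMT9 (log2 3.05, SE 0.65, adjusted p = 3.8e-04). Its fitted fold depends on the 5 control reads, being 2.04 without shCtrl replicate 1 and 7.56 without shCtrl replicate 2, which leaves a control at 0 reads and a value that is no bound. DNAJC5B, a relative of the cysteine string protein, had 28 and 26 reads in shCtrl and 84 and 134 reads in shPRMT9 (1.85, SE 0.245, adjusted p = 1.6e-06). DNAJC28 had 37 and 37 reads in shCtrl and 107 and 104 reads in shPRMT9 (1.36, SE 0.21, adjusted p = 1.1e-05). In all 3 genes both shPRMT9 counts were above both control counts, while the groups stood apart in CPM in 83.3% of all genes tested. DNAJC4 had more reads than these 3, at 8.93 and 8.01 CPM in shCtrl against 17.4 and 17.6 CPM in shPRMT9 (1.04, SE 0.086, adjusted p = 2.2e-09). It overlaps NUDT22 on the same strand, a gene that fell by 0.40 on the log2 scale. The ER membrane member DNAJC18 was at 10.1 and 9.74 CPM in shCtrl against 12.5 and 15 CPM in shPRMT9 (0.48, adjusted p = 2.3e-04). DNAJC1, an ER membrane member that can contact ribosomes, was at 51.9 and 53.2 CPM in shCtrl against 65.7 and 61.8 CPM in shPRMT9 (0.28, adjusted p = 1.0e-05). The last rises were small. DNAJC7, a cochaperone with binding sites for both HSP70 and HSP90, was at 152 and 149.9 CPM in shCtrl against 158 and 161 CPM in shPRMT9 (0.080, adjusted p = 0.010). DNAJC13, an endosomal protein, was at 116 and 125 CPM in shCtrl against 126 and 128 CPM in shPRMT9 (0.078, adjusted p = 0.040). DNAJC7 no longer passed without shPRMT9 replicate 2 (0.070), and DNAJC13 no longer passed without shCtrl replicate 1 (0.018) or either shPRMT9 library (0.085 and 0.070) and reached 0.145 without shCtrl replicate 2. DESeq2 called none of DNAJC22, DNAJC7, DNAJC13, DNAJC17 and DNAJB2. DNAJA4, DNAJB1, DNAJC2, DNAJC7, DNAJC9, DNAJC11, DNAJC14, DNAJC16, DNAJC17, DNAJC30, HSF1, HSPA14, HSP90AA1, HSPD1 and HSPE1 overlap genes on the opposite strand, and reads of such pairs cannot be told apart where counting ignores strand.

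The 6 remaining tested DNAJC genes did not pass the test. DNAJC5, the cysteine string protein of secretory vesicles, was at 118 and 122 CPM in shCtrl against 119.8 and 125 CPM in shPRMT9, with an interval of -0.031 to 0.098 on the log2 scale. DNAJC16 (-0.047 to 0.17), DNAJC19 (-0.20 to 0.039), DNAJC15 (-0.18 to 0.15), DNAJC30 (-0.035 to 0.32) and DNAJC27 (-0.35 to 0.19) had wider intervals. DNAJC15, DNAJC19 and DNAJC30 encode mitochondrial proteins, and DNAJC19 belongs to the import motor that works with HSPA9. None of these 6 intervals reaches a 1.5-fold change in either direction.

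The genes can also be grouped by place and task. Of 14 genes known as heat-inducible, 13 were tested, of which 9 fell (69.2%, against 34.5% of all genes) and HSPA6 and DNAJB4 rose. The stress-inducible HSPA1B (-0.12, adjusted p = 0.11) and DNAJA4 (-0.58, adjusted p = 0.072) were not called. The median of the 13 was -0.56, against 0.00085 over all genes. Of the 9 mitochondrial genes, HSPA9, HSPD1, HSPE1, DNAJA3 and DNAJC11 fell (55.6%), DNAJC28 rose (11.1%) and 3 were not called, with a median of -0.51. The shares over all genes were 34.5% and 33.4%. Both genes of the ribosome-associated complex fell. Of the 2 splicing-associated J-domain genes DNAJC8 fell, while the narrow call of DNAJC17 was lost in 13 of the 16 alternatives. Of 7 genes for proteins of the ER membrane or lumen that the name rule kept, HSPA13, DNAJB12, DNAJB14 and DNAJC25 fell (57.1%). DNAJC1 and DNAJC18 rose (28.6%) and DNAJC16 was not called. These classes hold few genes each and were chosen with results of these data known.

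The share of genes that fell went with the level of the gene. The 7 chaperone genes with the highest RPKM, in the order HSP90AB1, HSPA8, HSP90AA1, HSPD1, HSPA9, DNAJA1 and HSPB1, all fell, and the eighth, HSPA7, rose. At a mean of 10 RPKM or more over the 4 libraries, 23 of 28 chaperone genes fell (82.1%), 4 rose and 1 was not called. Below 10 RPKM, 7 of 26 fell (26.9%), 9 rose and 10 were not called. Over all tested genes the falls were divided by level in the same sense, while the rises hardly differed. Of the 4118 genes at 10 RPKM or more 53.1% fell and 33.1% rose, against 27.6% and 33.5% of the 11075 genes below it. Genes not called numbered 569 and 4311, and how far fewer reads limited the calls was not tested. The median log2 fold change at 10 RPKM or more was -0.50 for the chaperone genes and -0.12 for all genes, and below 10 RPKM it was 0.023 and 0.065. The limit of 10 RPKM was chosen after the values were seen, and the difference from other genes of that level was not tested.

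**Figure D4:**
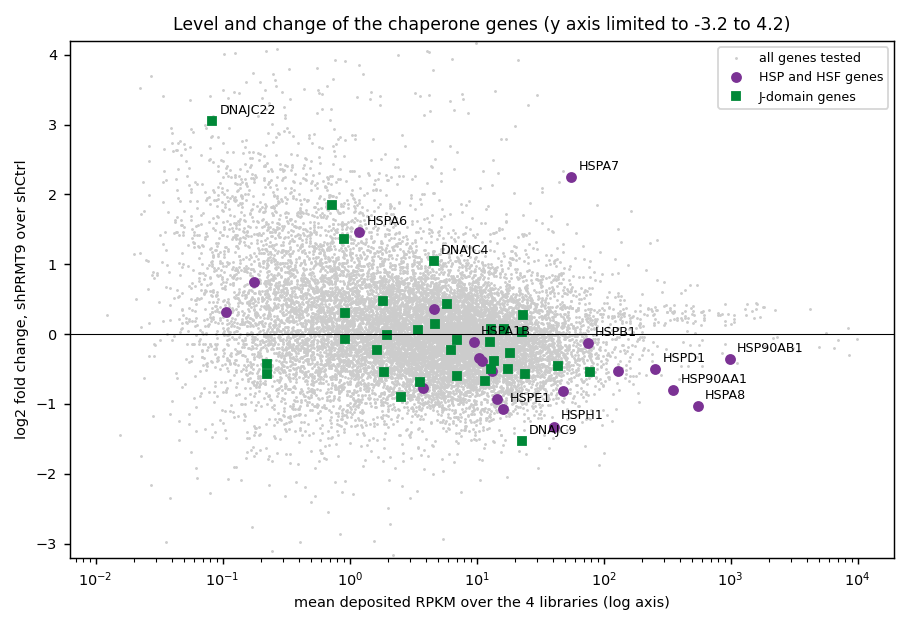
Log2 fold change (y axis, shPRMT9 over shCtrl) against the mean deposited RPKM of the 4 libraries (x axis, log scale) for all 15193 tested genes in grey, heat shock protein and factor genes as circles and J-domain genes as squares. The 7 chaperone genes of highest level lie below 0, and the chaperone genes with log2 fold changes above 1 have a mean below 2 RPKM except HSPA7 and DNAJC4. Grey points beyond the limits given in the title are not drawn.

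The partners of these chaperones were taken from lists of cochaperones that were written with results of these data known. Of 24 HSP90 cochaperone genes, 13 fell (54.2%) and 8 rose (33.3%), the latter share at the background of 33.4% for all genes and the former above its 34.5%, around a median of -0.29 on the log2 scale. STIP1 (HOP), which passes clients from HSP70 to HSP90, was at 263 and 274 CPM in shCtrl against 141 and 144 CPM in shPRMT9 (-0.92, adjusted p = 4.2e-16). PTGES3 (p23), which stabilises the closed HSP90 dimer, was at 696 and 701 CPM in shCtrl against 457 and 462 CPM in shPRMT9 (-0.60, adjusted p = 2.3e-15). NUDC (-0.92, adjusted p = 4.6e-15) and the immunophilin FKBP4 (-0.77, adjusted p = 1.7e-14) fell as well. Opposite to them, FKBP8, an immunophilin of the mitochondrial outer membrane, rose from 185 and 181 to 277 and 270.4 CPM (0.58, adjusted p = 9.3e-14). CDC37, which brings kinases to HSP90, was at 262 and 263 CPM in shCtrl against 329.8 and 313 CPM in shPRMT9 (0.29, adjusted p = 3.7e-09). UNC45A, a myosin cochaperone, rose by 0.49 and FNIP1, the partner of folliculin, by 0.43 (adjusted p = 3.2e-09 and 9.8e-08).

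Of 12 HSP70 cochaperones and exchange factors, 8 fell (66.7%) and 3 rose (25%), against 34.5% and 33.4% of all genes, with a median of -0.37. SGTA, which sorts tail-anchored proteins, fell by 0.62 on the log2 scale (adjusted p = 1.6e-12). The BAG-domain exchange factors BAG1 (-0.47, adjusted p = 6.8e-11), BAG5 (-0.64, adjusted p = 1.1e-10) and the quality control factor BAG6 (-0.31, adjusted p = 2.0e-10) were lower too. ST13 (HIP), which slows release of clients from HSP70, rose from 298 and 297 to 353 and 341 CPM (0.22, adjusted p = 4.4e-08). TTC1 and BAG4 were the other rises (0.27 and 0.12, adjusted p = 1.8e-05 and 0.0058). BAG3, a heat-inducible exchange factor, was the only one of the 12 not called, at 23.4 and 22.4 CPM in shCtrl against 23.1 and 22.4 CPM in shPRMT9 (interval -0.14 to 0.12, adjusted p = 0.87).

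Of 11 tested mitochondrial partners 7 fell (63.6%) and 2 rose (18.2%), against 34.5% and 33.4% of all genes, with a median of -0.27. TIMM44, which ties HSPA9 to the import channel, went from 83.8 and 82 to 57.4 and 53.9 CPM (-0.58, adjusted p = 1.0e-10). GRPEL2, an exchange factor for HSPA9, was at 34.7 and 39.3 CPM in shCtrl against 18.7 and 20.2 CPM in shPRMT9 (-0.92, adjusted p = 2.0e-10). Its paralogue GRPEL1 was not called (0.013, interval -0.062 to 0.088, adjusted p = 0.75), and neither was TRAP1, the mitochondrial HSP90 (0.034, interval -0.015 to 0.083, adjusted p = 0.200). The matrix proteases LONP1 (-0.36, adjusted p = 1.1e-10) and CLPP (-0.42, adjusted p = 7.1e-08) fell. HSCB, the J-domain protein of iron-sulphur cluster transfer, and CLPX, the unfoldase of CLPP, rose (0.53 and 0.15, adjusted p = 2.5e-04 and 6.8e-04).

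Of 6 tested further heat shock factors and regulators 2 fell (33.3%, near the 34.5% of all genes) and 3 rose (50%, against 33.4%), with a median of 0.038. Besides HSF4 and HSBP1, the acetyltransferases EP300 and CREBBP moved slightly, by -0.091 and 0.12 (adjusted p = 0.0026 and 0.0015). HSBP1L1 rose by 1.58 (adjusted p = 0.022) at under 1 CPM in every library. Among J-domain genes with other names, GAK, the clathrin-uncoating cochaperone of HSPA8, rose by 0.15, and SEC63 of the ER translocon fell, with a log2 fold change of -0.094 (adjusted p = 3.4e-04 and 0.0011). All lists together, each gene counted once, had 56 tested genes of which 32 fell and 17 rose (57.1% and 30.4%, against 34.5% and 33.4% of all genes), with a median of -0.28. The difference from all genes was not tested. The share that fell was 55.6% among the chaperone genes themselves.

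**Figure D5:**
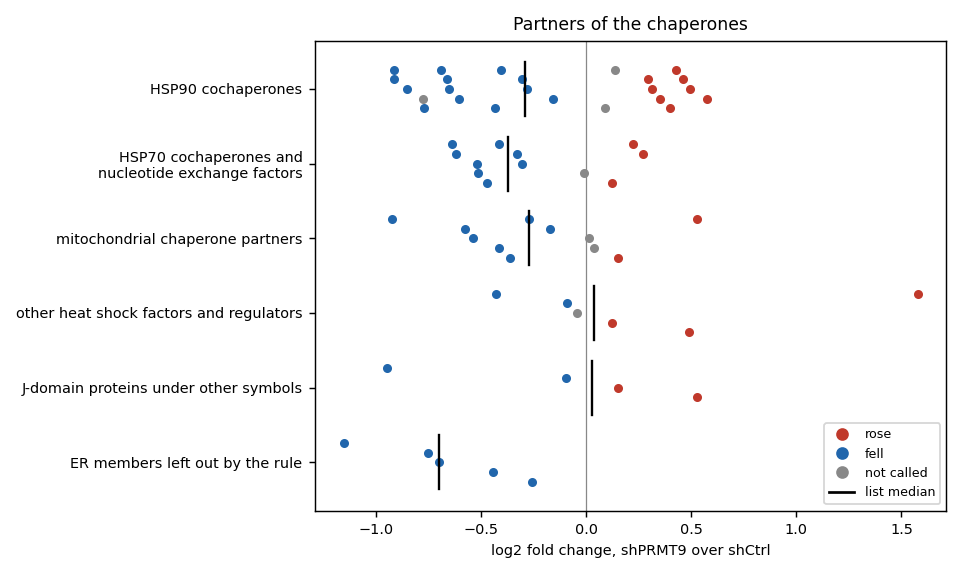
Log2 fold change (x axis, shPRMT9 over shCtrl) of each tested gene in the lists of chaperone partners and of the 5 ER chaperone genes that the name rule left out, coloured by call, with the median of each list as a bar. The ER genes all lie below 0, while each partner list has genes on both sides.

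The ER chaperone genes left out by the name rule moved in the direction of the cytosolic ones, with 5 of 5 lower (background 34.5%) and a median log2 fold change of -0.70. HSPA5 (BiP), the HSP70 of the ER lumen, was at 455 and 465 CPM in shCtrl against 282 and 283 CPM in shPRMT9 (-0.70, adjusted p = 8.1e-16). DNAJB11, its J-domain partner, had the largest fall of the 5, from 41.9 and 41.6 to 18.4 and 19.1 CPM (-1.15, adjusted p = 3.5e-13). The difference between ER and other chaperone genes was not tested.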

How the data were processed

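Poly(A) RNA was sequenced from 2 shCtrl and 2 shPRMT9 libraries. For each Ensembl gene the authors deposited unnormalised counts of reads and, in a second table, RPKM, both placed on GRCh38. The submitters' processing notes list SAMtools 1.10, STAR 2.7.2a and Trimmomatic 0.39. How reads were counted, with or without strand, and what became of reads with several matches is not given in the sources used here, so reads of near-identical or overlapping genes may be split or lost.

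Counts were tested with edgeR 4.0.16 in R 4.3.3 (filterByExpr with minimum count 10, TMM scaling, robust quasi-likelihood fit with group as the only term) on all 15193 genes kept, which hold 99.9% of counts, with Benjamini-Hochberg adjustment and a threshold of 0.05. CPM values are TMM-scaled, and 95% intervals come from the same fit. On simulated counts the test was checked for recovery of known changes. Stretches of 50 bases were compared with all GENCODE release 29 transcripts. Promoter windows came from RefSeq (GRCh38.p14). Alternatives used DESeq2 1.42.0 and limma 3.58.1.

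The members, lists and tests were chosen with earlier results of these data known. Named genes are PRMT9, every tested gene of the heat shock protein, heat shock factor, DNAJA and DNAJB families, the 8 largest called rises and falls of DNAJC with those not called, and per partner list up to 4 called genes in each direction by lowest adjusted p. Fc receptor genes, DNAJC17, GRPEL1, TRAP1 and BAG3 were named after their values were seen. Some listed genes are not reported here by name.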

Additional observations from a re-analysis of the deposited data

How the results depend on the processing

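Of the 54 tested chaperone genes, 39 kept their direction and their side of the threshold in all 16 alternatives in which they were tested, 15 changed side in at least 1 and 0 of the called genes reversed. The 9 that lost a call somewhere were DNAJB2, DNAJB6, DNAJB12, DNAJC7, DNAJC13, DNAJC17, DNAJC18, DNAJC22 and HSPB1, and the 6 that gained one were DNAJA4, DNAJC5, DNAJC16, DNAJC30, HSPA1B and HSPA1L. Limma on log2(RPKM + 1) without a filter called 8 rises in place of 13 and gave a median log2 fold change of -0.089 in place of -0.302, over 66 genes that include those near 0. The median was -0.339 with log2(RPKM + 0.1) over 49 genes and -0.214 with upper-quartile scaling, which moved the median of all genes to 0.089 and the share of higher calls from 49.1% to 57.1%. The cause of the shift with log2(RPKM + 0.1) was not tested. DESeq2 called 9 rises and 28 falls, 6 genes fewer, named among the 9 above except DNAJB6, DNAJC18 and HSPB1. Libraries of the same number share only that number (correlation of their deviations -0.0307). With the replicate block there were 12 rises and 29 falls, with a median of -0.302. Leaving out 1 library at a time gave 10 to 13 rises, 29 to 31 falls, a median between -0.316 and -0.291, and a PRMT9 value between -2.579 and -2.387; a group of 1 library is then assumed to vary like the other. The 2 libraries a group limit the test of genes with few reads, such as HSPA2, HSPA1L, DNAJA4 and DNAJB5.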
